A study of Drosophila melanogaster with 4 samples.

Results

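The distal part of chromosome arm 3R of Drosophila melanogaster runs from position 14000000 to the telomeric end of the sequence at 27905053, on Release 5 of the genome, and measures 13.9 Mb. Its H1-enriched regions were taken by position alone, as every region on 3R that starts at or above 14000000. This gave 652 of 3779 regions in ChIP replicate 1, 741 of 4665 in ChIP replicate 2 and 2273 of 18812 in the combined list, a further set of regions deposited for the series as a whole. The nearest combined regions inside the limit lay at 14003376 to 14004648 and 14015642 to 14017382, with scores of 0.30 and 0.32, and those just outside at 13976860 to 13979120 and 13979854 to 13982260, with scores of 0.36 and 0.35. Proximal 3R, from position 1 to the limit, was the main comparison and held 514, 582 and 2272 regions in the same lists.

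The series consisted of 2 ChIP samples with an antibody against H1 and 2 input samples, all from wild-type larvae of the Oregon-R strain (Oregon-R-modENCODE) at the third instar; the input libraries were not analysed here. Larval tissues were homogenised together before crosslinking, so a region present in few cells and one weakly occupied in many cannot be told apart. The labels do not say whether the replicates were separate cultures, and the spread between them may therefore be technical. The lists hold no read depth, and a score is the authors' own enrichment value on a scale that is not stated.

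Histone H1 is the linker histone. It binds where DNA enters and leaves the nucleosome, helps fold chromatin into compact fibres, and in Drosophila is needed for the structure of the giant polytene chromosomes of larval salivary glands and for silencing of transposable elements. It is found along whole chromosomes, so an enriched region is a place called for higher signal, not the only place where H1 is bound. Fly chromosome arms end in arrays of telomeric retrotransposons and subtelomeric repeats rather than in the short repeats of most other animals.

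Distal 3R was more densely covered by H1 regions than proximal 3R in both replicates and in the combined list. In distal 3R, H1 regions covered 8.17% of the sequence in replicate 1 and 9.59% in replicate 2, against 6.25% and 7.25% in proximal 3R. The means were 8.88% ± 1.01 in distal and 6.75% ± 0.707 in proximal 3R (SD, n = 2 each), and the ratio of distal to proximal was 1.31 in replicate 1 and 1.32 in replicate 2. In each replicate the difference between distal and proximal 3R was larger than the difference between the replicates within either part, although replicate 2 in proximal 3R, at 7.25%, came within 1 percentage point of replicate 1 in distal 3R. The combined list covered 39.9% of distal and 34.3% of proximal 3R, a ratio of 1.16. An exact sign-flip test over 2 replicates cannot go below p = 0.5, so none was made.

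The excess in the replicates came with more regions, and that in the combined list with longer ones. Distal 3R held 46.9 and 53.3 regions per Mb in replicates 1 and 2, against 36.7 and 41.6 in proximal 3R, a ratio of 1.28 in each. In the combined list the densities were 163 and 162 regions per Mb in distal and proximal 3R, a ratio of 1.01 that became 0.943 when regions less than 1000 bp apart were joined. Distal 3R makes up 9.95% of the 139.7 Mb of sequence that holds regions, and it held 17.3%, 15.9% and 12.1% of all regions in replicate 1, replicate 2 and the combined list. That sequence includes more than arms 2L, 2R, 3L, 3R and X, which measure 119 Mb. Over these 5 arms the lists held 31.0, 35.8 and 146 regions per Mb, so the excess of distal 3R was smallest in the combined list.

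The arm comparison put distal 3R above the distal part of every other large arm. Next came distal 2R, cut at the middle of its sequence, with 6.96% and 7.71% covered in replicates 1 and 2 and 35.5% in the combined list. Distal 2L was covered to 6.17% and 6.34%, distal 3L to 5.15% and 5.87% and distal X to 2.85% and 3.12%. The ratio of distal to proximal coverage was above 1 in both replicates on 3R, 2R (1.47 and 1.33) and X (1.28 and 1.26). On 2L it was 1.28 in replicate 1 and 0.881 in replicate 2, and on 3L it was 1.19 and 0.952. Coverage of distal 3R was 1.76 and 1.72 times that of the other 4 arms taken whole. That pool includes X, the least covered arm, with only 2.22% and 2.47% in its proximal part. The ratio without X was not computed.

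**Figure D1:**
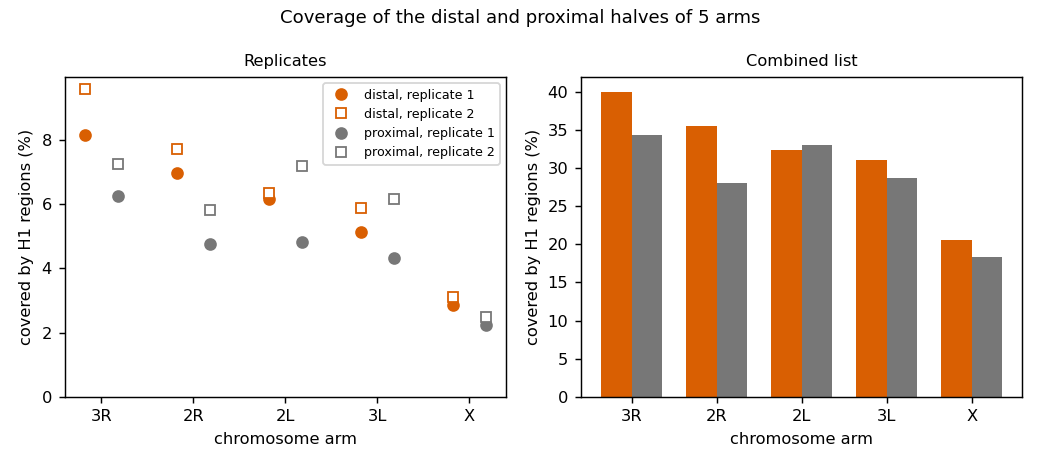
Percent of sequence covered by H1 regions in the distal (orange) and proximal (grey) parts of 5 chromosome arms; points in the left panel are replicate 1 (filled circles) and replicate 2 (open squares), and bars in the right panel are the combined list. Distal 3R has the highest value in each list, at 8.17%, 9.59% and 39.9%.

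Single H1 regions of the replicates were short in both parts, and with all regions their median length differed by less than the spread between replicates. The median length was 1580 bp in replicate 1 and 1594 bp in replicate 2 in distal 3R, against 1557 and 1598 bp in proximal 3R, a mean difference of 9.5 ± 18.4 bp (SD, n = 2) with opposite signs in the 2 replicates. That did not hold for regions scoring at or above the list median, where distal regions were longer by 90.5 bp in replicate 1 and 168 bp in replicate 2, nor with the limit moved to 16000000, where they were longer by 34 and 28 bp. The shortest region measured 1301 bp in each replicate, and the longest distal regions measured 5410 bp in replicate 1, at 22486174 to 22491583, and 5966 bp in replicate 2, at 19367596 to 19373561. In the combined list the median was 1801 bp in distal and 1639 bp in proximal 3R. Its upper tail differed more: 186 distal regions, or 8.18%, reached 5000 bp, against 95 proximal ones, or 4.18%, and these long regions carried 24.8% of the covered sequence in distal and 14.2% in proximal 3R. Regions of at least 10 kb numbered 21 in distal and 12 in proximal 3R.

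Regions also followed each other more closely in distal 3R. The median gap between neighbouring regions was 7987 bp in replicate 1 and 5299 bp in replicate 2, against 9954 and 7767 bp in proximal 3R, ratios of 0.802 and 0.682. In the combined list it was 1109 bp in distal and 1267 bp in proximal 3R. Of 2272 distal gaps in that list, 1082 were under 1000 bp, or 47.6%, against 1000 of 2271, or 44.0%, in proximal 3R. Distal gaps of at least 20 kb numbered 87 and those of at least 50 kb numbered 15. Long gaps of the combined list were slightly fewer than in proximal 3R, which had 95 and 19 of them. In replicates 1 and 2 gaps of at least 20 kb numbered 176 of 651 and 153 of 740 in distal 3R. In proximal 3R they numbered 161 of 513 and 150 of 581, a larger share in each replicate. Gaps of at least 50 kb numbered 67 and 65 in distal 3R, or 10.3% and 8.78%, against 77 and 71 in proximal 3R, or 15.0% and 12.2%. The spread of gaps in the combined list was wide: the middle 50% ran from 341 to 3257 bp in distal 3R, and from 342 to 3772 bp in proximal 3R.

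**Figure D2:**
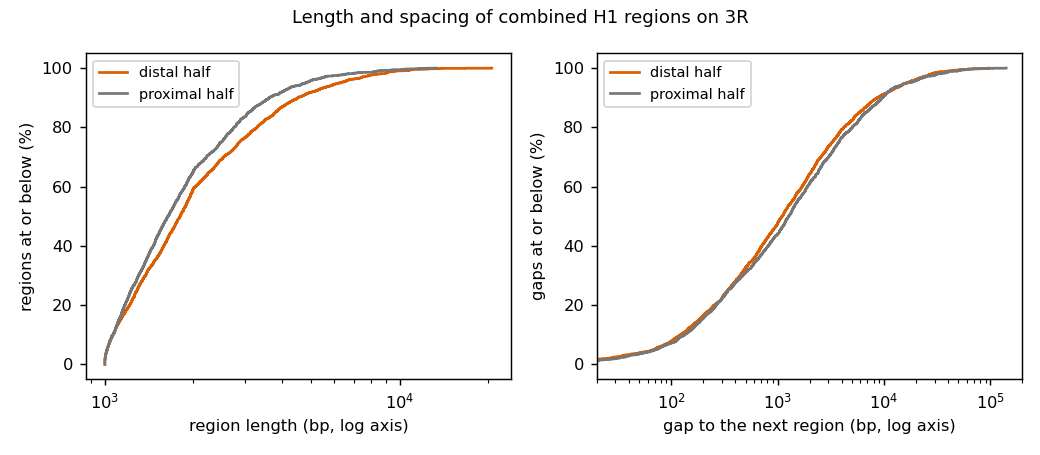
Cumulative percent of combined H1 regions by length (left) and of gaps between neighbouring regions by size (right), both on log axes in bp, for distal (orange) and proximal (grey) 3R. The distal length curve lies to the right of the proximal one over most of its course, with medians of 1801 and 1639 bp, and the gap curves differ little, with medians of 1109 and 1267 bp.

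Scores hardly separated the parts. The median score in distal 3R was 0.53 in replicate 1, 0.57 in replicate 2 and 0.38 for the combined list, against 0.53, 0.56 and 0.37 in proximal 3R. The mean difference between distal and proximal 3R over the replicates was 0.0073 ± 0.0034 (SD, n = 2). The highest score was 0.79, 0.85 and 0.66 in distal 3R, in the same order of lists, and 0.81, 0.76 and 2.10 in proximal 3R. Within distal 3R longer regions tended to score higher, with Spearman's rho of 0.36 over 652 regions of replicate 1, 0.42 over 741 of replicate 2 and 0.32 over 2273 of the combined list. These are correlations across regions of 1 list, which share a library, and carry no test.

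Along distal 3R the coverage did not climb steadily to the telomere but peaked in a belt 3 to 6 Mb from it. In windows of 1 Mb counted back from the telomeric end, the fourth, from 23905054 to 24905053, was covered to 13.2% in replicate 1, 16.9% in replicate 2 and 57.4% for the combined list. The fifth window, from 22905054 to 23905053, was covered to 10.5%, 17.6% and 53.0%, and the sixth, from 21905054 to 22905053, to 11.3%, 14.0% and 49.7%. These 3 windows are the belt. They make up 21.6% of distal 3R and held 30.7% of its covered sequence in replicate 1, 36.3% in replicate 2 and 28.8% for the combined list, with 71 of the 186 combined regions of at least 5000 bp.

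On the telomeric side of the belt coverage levelled off. The third, second and first windows were covered to 7.47%, 7.28% and 8.64% in replicate 1, to 8.51%, 8.65% and 8.39% in replicate 2, and to 38.9%, 41.9% and 41.1% in the combined list. On the centromeric side it was lower, with 1 high window in between. The seventh, eighth and ninth windows were covered to 6.64%, 5.93% and 5.89% in replicate 1, and to 7.24%, 5.37% and 4.85% in replicate 2. The tenth, from 17905054 to 18905053, stood out again with 10.4%, 12.9% and 44.3% in the 3 lists. It was followed by the sparsest, from 16905054 to 17905053, with 2.99%, 3.40% and 22.1%.

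The last full windows before the limit returned to the average of distal 3R. The twelfth had 7.28%, 9.20% and 42.1% in replicate 1, replicate 2 and the combined list, and the thirteenth 7.90%, 9.33% and 39.8%. Over the 13 windows, Spearman's rho between coverage and distance from the telomere was -0.39 in replicate 1, -0.15 in replicate 2 and -0.30 for the combined list, given as a description because neighbouring windows are not independent. With the belt left out, a choice made after seeing the data that removes the densest windows by design, the ratio of distal to proximal coverage was 1.15 in replicate 1, 1.07 in replicate 2 and 1.06 for the combined list.

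**Figure D3:**
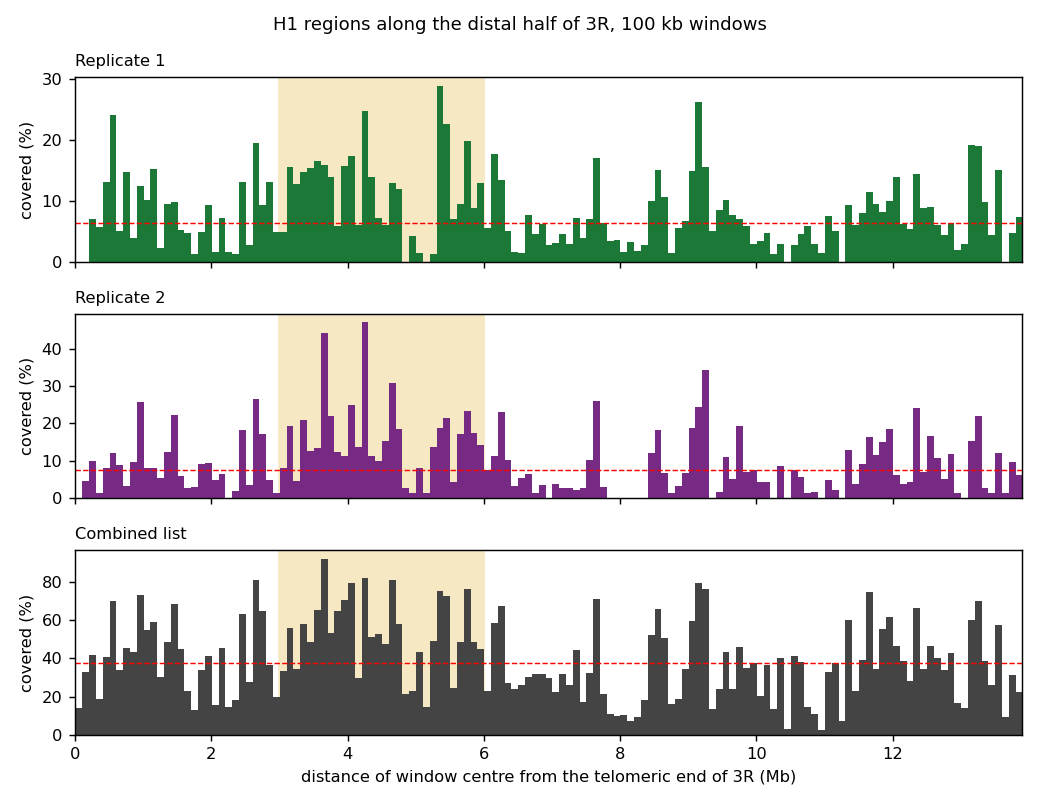
Percent of each 100 kb window of distal 3R covered by H1 regions, by distance of the window from the telomeric end (Mb), in replicate 1, replicate 2 and the combined list; the dashed line is the median window (6.45%, 7.47% and 37.8%) and the shaded band the belt 3 to 6 Mb from the end. Most peaks and troughs fall at the same distances in the 3 panels, and replicate 2 is empty close to 8 Mb.

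Regions of the belt were also longer in each list. In replicate 1, median lengths were 1663 bp inside the belt and 1544 bp elsewhere in distal 3R; in replicate 2 they were 1665 and 1573 bp, and in the combined list 2025 and 1735 bp. Median scores inside and outside were 0.55 and 0.52 in replicate 1, 0.60 and 0.56 in replicate 2, and 0.40 and 0.38 in the combined list. The belt was picked for its coverage, so these values describe it and support no comparison.

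At finer scale 10 of the 17 dense H1 windows that each replicate had in distal 3R were common to both. Windows of 100 kb were ranked over the 5 large arms, and the densest 5% of each list, 59 of 1189 windows or 4.96%, were called dense. Distal 3R, with 139 windows, held 17 dense windows in replicate 1, 17 in replicate 2 and 18 for the combined list. Dense in both replicates were 27 windows of the 5 arms, or 2.27%, of which 10 lay in distal 3R, or 7.19% of its windows, 6 in proximal 3R, or 4.29%, and 11 on the other 4 arms, or 1.21%. All 10 were also dense in the combined list.

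The densest window by the mean of the replicates ran from 23600001 to 23700000. It was covered to 24.8% in replicate 1, 47.0% in replicate 2 and 82.4% for the combined list. The window from 24200001 to 24300000 followed with 15.9%, 44.1% and 92.1%, the highest combined value on any of the 5 arms. In both, replicate 2 was well above replicate 1. Replicates were closer in the window from 18700001 to 18800000, with 26.2% and 24.3%, and in that from 22400001 to 22500000, with 22.7% and 21.4%.

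The neighbouring window from 18600001 to 18700000 had 15.5% and 34.2% in replicates 1 and 2. From 22500001 to 22600000 the order turned round, with 28.9% in replicate 1, the densest window of that replicate on the 5 arms, and 18.8% in replicate 2. The remaining 4 of the 10 densest windows began at 25200001, 23200001, 22100001 and 20200001, and averaged 23.0%, 21.9%, 21.6% and 21.5% over the replicates. Of the 10, the windows that began at 22500001 and at 23200001 were dense in 1 replicate only; the 10 densest by mean and the 10 dense in both thus overlap in 8.

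Across the 139 windows the replicates ranked alike, with Spearman's rho of 0.76 between them and of 0.93 between their mean and the combined list. The rho between replicates was 0.71 over the 140 windows of proximal 3R. Windows share the libraries and lie side by side, so no test is attached. Replicate 2 covered more than replicate 1 in 74 of the 139 windows, and its margin was widest in the densest ones, at 28.2, 22.2 and 18.7 percentage points. The widest margins of replicate 1 were 12.1 points from 27300001 to 27400000, 11.5 points from 27100001 to 27200000, and 10.1 points from 22500001 to 22600000. Over distal 3R as a whole replicate 1 covered 8.17% and replicate 2 covered 9.59%. The part of depth or threshold in these margins was not tested.

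**Figure D4:**
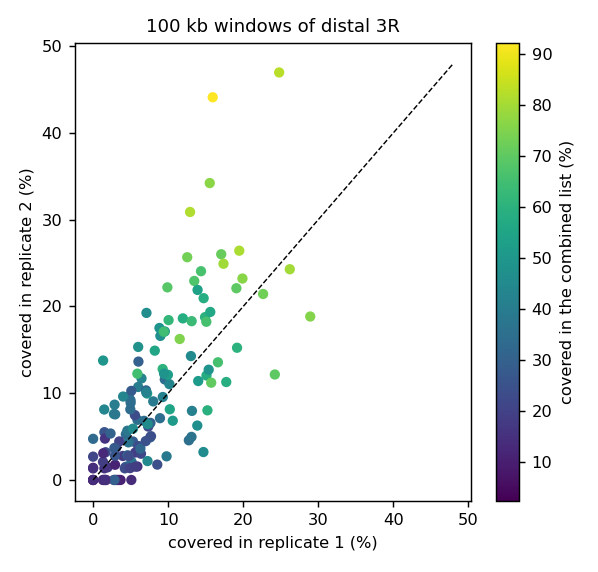
Each point is a 100 kb window of distal 3R, with the percent covered by H1 regions in replicate 1 on the x axis, in replicate 2 on the y axis and in the combined list by colour; the dashed line marks equality. The widest departures from the line, at 47.0% and 44.1% in replicate 2, lie above it, while the densest window of replicate 1, at 28.9%, lies below it.

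Combined H1 regions of distal 3R were strung into dense chains. A chain was a run of regions with gaps of at most 2000 bp, and a chain of at least 5 regions was called dense. There were 123 dense chains in distal and 112 in proximal 3R, or 8.85 and 8.00 per Mb; with gaps of at most 1000 bp the counts were 70 and 70. Distal chains spanned 3.71 Mb, or 26.7% of distal 3R, and held 46.8% of its regions and 56.0% of its covered sequence, against 20.9%, 42.5% and 50.2% in proximal 3R. Inside them 83.8% of the sequence was covered in distal and 82.2% in proximal 3R. Of the replicates' own distal regions, 390 of replicate 1, or 59.8%, and 482 of replicate 2, or 65.0%, touched a dense chain, against 56.8% and 57.9% in proximal 3R.

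The chain with the most covered sequence ran from 24171934 to 24309472. It joined 31 regions over 138 kb, covered to 91.5%, with regions from 1001 to 12447 bp, a median gap of 321 bp and no gap above 1133 bp. Replicate 1 covered 22.8% of it with 17 regions and replicate 2 covered 43.1% with 29. The second, from 18724628 to 18832686, joined 20 regions over 108 kb, 11 of them at least 5000 bp long, and had 24.3% covered in replicate 1 and 29.4% in replicate 2. Proximal 3R had no chain longer than 91.2 kb.

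Chains varied in their grain. The third, from 16155414 to 16278330, held the most regions, 38 over 123 kb, but was covered to only 76.2%, with a median region of 1870 bp; replicates 1 and 2 covered 14.8% and 18.4% of it. The fourth, from 14627208 to 14728154, joined 27 regions over 101 kb and had 27.2% covered in replicate 1 and 23.6% in replicate 2. Of the other 6 of the 10 chains with most covered sequence, 3 lay in the belt, starting at 23816304, 24748760 and 23620292, and the rest started at 25202772, 26761620 and 16491520; they spanned 66.8 to 79.6 kb. The chain at 26761620 was the one most uneven towards replicate 1, which covered 23.6% of it against 7.88% in replicate 2.

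Within the replicates' own lists such chains were short. In replicate 1, 33.4% of distal regions had a neighbour within 2000 bp, compared with 28.2% in proximal 3R, and the largest run was 5 regions from 24181509 to 24196223. In replicate 2 the shares were 43.7% in distal and 32.6% in proximal 3R, and the largest run was 9 regions over 27.2 kb, from 18659732 to 18686939.

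The longest unbroken run of windows covered to at least 50% in the combined list lay within the belt. That level is lower than the one for dense windows, which began at 66.3% in that list. All 6 windows from 23800001 to 24400000 were covered to at least 50% in the combined list, with means of 14.2% in replicate 1, 21.3% in replicate 2 and 71.0% for the combined list. Among the 139 windows 41 reached 50%, against 31 of 140 in proximal 3R, and the other runs were of at most 3 windows.

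**Figure D5:**
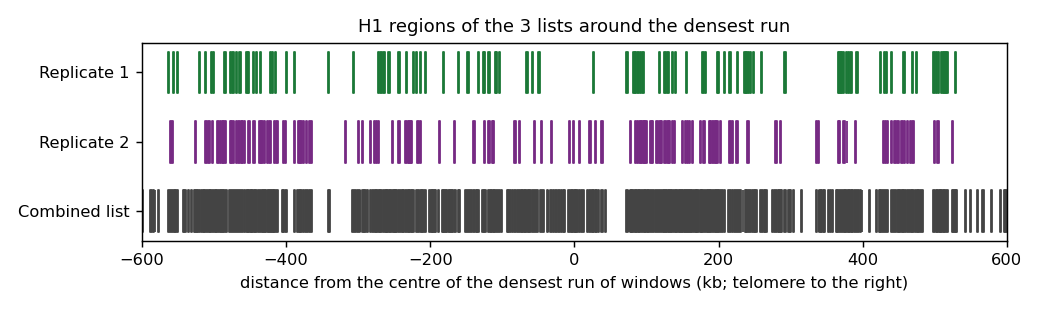
Positions of H1 regions in replicate 1, replicate 2 and the combined list within 600 kb either side of the centre of the 6-window run, with distance from that centre in kb on the x axis and the telomere to the right. Blocks of near-continuous combined regions are separated by wider gaps, and the regions of both replicates fall mostly inside the blocks.

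The longest combined region of distal 3R, from 23620292 to 23640846, measured 20555 bp and resolved into several regions in each replicate. Replicate 1 had 4 within it, at 23622678 to 23624046, 23625636 to 23627661, 23630427 to 23632156 and 23634868 to 23637437. Replicate 2 had 6, and its first 4, at 23622552 to 23624073, 23624143 to 23627684, 23630291 to 23632469 and 23633363 to 23636276, each overlapped the replicate 1 region of the same order. The remaining 2 of replicate 2, at 23636979 to 23638945 and 23639218 to 23640559, extended towards the telomere, the first of them still overlapping the last region of replicate 1. Replicate 1 covered 37.4% of the long region and replicate 2 covered 65.5%.

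The next longest regions lay at 19385918 to 19402552, with 16635 bp, at 26443908 to 26457794, with 13887 bp, and at 25255998 to 25269520, with 13523 bp. Replicates 1 and 2 covered 31.3% and 24.8% of the first, 26.2% and 22.6% of the second, and 19.4% and 48.1% of the third. The region at 23214796 to 23226408, of 11613 bp, was bare in replicate 1, at 0%, and covered to 74.0% in replicate 2. Among the 21 regions of at least 10 kb, the median share covered was 35.6% in replicate 1 and 38.2% in replicate 2, with 3 and 1 regions not touched at all.

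The highest combined scores were split between regions seen in both replicates and regions seen in neither. Of the 10 highest, 5 overlapped both replicates and 5 overlapped none, and 8 lay in the belt. Among all distal combined regions 11.2% overlapped both replicates, 57.9% overlapped none and 24.2% lay in the belt. The highest, at 23613152 to 23617708, scored 0.66, and replicates 1 and 2 covered 78.6% and 87.3% of it. It also held the top score of replicate 1, 0.79, in the region at 23613750 to 23617332. The second, at 24073250 to 24075670, scored 0.64 with no region of either replicate. The third, at 24224166 to 24227390, scored 0.60 and was covered to 69.7% and 79.4%, and the fourth, at 23164766 to 23169122, scored 0.59 and was covered to 68.4% and 81.3%. The other 4 without a replicate region measured from 1131 to 1375 bp. The top score of replicate 2, 0.85 at 24198334 to 24201415, had no counterpart in replicate 1.

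Region by region, between 34.0% and 39.4% of the distal regions of a replicate had a partner in the other, a higher share than over the whole lists. Of 652 distal regions of replicate 1, 257 shared at least 1 bp with a region of replicate 2, a share of 39.4% (95% Wilson interval 35.7 to 43.2%), against 33.7% in proximal 3R and 31.5% over all regions. In the other direction 252 of the 741 distal regions of replicate 2 met replicate 1, or 34.0% (30.7 to 37.5%), against 28.9% in proximal 3R and 25.3% over all regions. Requiring 50% of both regions left distal shares of 21.8% for replicate 1 and 19.2% for replicate 2. With that rule no share was computed for proximal 3R or the whole lists. The intervals cover counting of regions only, and denser lists meet more often by position alone; the part of density in these shares was not tested. Overlapping pairs numbered 270 in distal 3R, with a median distance of 671 bp between centres, and their scores were weakly related (rho of 0.19, as a description). By length, the sequence common to both replicates was 13.1% of that marked by at least 1 of them in distal 3R, against 11.4% in proximal 3R.

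Nearly every distal region of a replicate touched the combined list, but not the reverse. In distal 3R, 648 of 652 regions of replicate 1, or 99.4%, and 736 of 741 of replicate 2, or 99.3%, overlapped a combined region, against 98.6% and 97.9% over all regions. Of the 2273 distal combined regions, 570 overlapped replicate 1, or 25.1%, against 18.4% over the whole list, and 643 overlapped replicate 2, or 28.3%, against 22.7%. Both replicates were touched by 255, or 11.2%, against 8.05% in proximal 3R and 6.71% over the whole list. This distal share was 2.46% when 50% of both regions had to overlap. It was 3.47% with every list limited to regions of at least 2000 bp, which also removed the shorter regions of the replicates. Neither share was computed for proximal 3R or the whole list. The combined list bears on the same libraries, so these overlaps are not independent of the replicates.

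Overlap with the replicates went with length, and a longer region also meets others more often by position alone. The 255 distal regions touched by both replicates had a median length of 4387 bp and a median score of 0.44, and the 1315 touched by neither had 1403 bp and 0.37. Proximal 3R was similar, with 3975 bp and 0.43 for regions touched by both, and 1375 bp and 0.36 for those touched by neither. None of the 814 distal regions from 1000 to under 1500 bp was touched by both replicates, compared with 43 of 393 from 2000 to under 3000 bp, 95 of 165 from 5000 to under 10000 bp and 17 of 21 from 10000 bp. In proximal 3R the same classes had 1 of 972, 43 of 418, 43 of 83 and 12 of 12, so the pattern was not particular to distal 3R. The replicates held no region shorter than 1301 bp, whereas the combined list went down to 1001 bp.

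Of the 5 least covered windows of distal 3R, 4 lay between 8 and 12 Mb from the telomere. The least covered windows in the combined list were 16900001 to 17000000, with 2.37%, and 17400001 to 17500000, with 2.77%. Replicate 1 covered 1.41% of the window at 16900001 and replicate 2 none, and neither covered the one at 17400001. The third, from 19700001 to 19800000, was covered to 7.39% in the combined list, 3.20% in replicate 1 and 0% in replicate 2. No distal window lacked combined regions altogether, and 7 of 139 were under 10%, against 17 of 140 in proximal 3R. The longest gaps of the combined list measured 97.2 kb, from 17395601 to 17492755, 97.1 kb, from 19672957 to 19770039, and 96.0 kb, from 16359869 to 16455873.

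Replicate 2 had no region over 713 kb, from 19477958 to 20191245, the second longest such stretch in its list on the 5 arms and the longest on the autosomal ones. The next longest gap of that replicate in distal 3R was 229 kb. Replicate 1 had 11 regions in the same stretch, covering 2.48% of it, with lengths up to 2270 bp and scores from 0.44 to 0.64. The combined list had 53, covering 11.3%, with a median length of 1267 bp. The stretch is by its choice bounded by regions of replicate 2, and the other lists were also much denser on either side of it. In the 100 kb next to it on the centromeric side the 3 lists covered 16.7%, 17.2% and 69.4%, and on the telomeric side 19.1%, 27.4% and 72.6%. In replicate 1 the longest gap of distal 3R was 193 kb, from 22629511 to 22822549, inside the belt.

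Towards the chromosome end H1 coverage of the last 1 Mb as a whole was close to the average of distal 3R. In steps of 100 kb counted back from the end it ran from 14.0% to 72.9% in the combined list. The last 1 Mb was covered to 8.64% in replicate 1, 8.39% in replicate 2 and 41.1% for the combined list, against 8.13%, 9.69% and 39.8% in the rest of distal 3R. The ratios were 1.06, 0.866 and 1.03, and the replicate mean of 0.964 ± 0.139 (SD, n = 2) lay within its spread of 1. Median lengths in the last 1 Mb were 1598, 1782 and 1827 bp in the 3 lists, against 1577, 1591 and 1799 bp in the rest. Coverage in the last 1 Mb of the other arms ran from 2.47% on 3L to 8.47% on 2R in replicate 1, and from 1.96% on 3L to 6.11% on 2R in replicate 2, so 3R was the most covered arm end in both.

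The last 100 kb was sparse. It held no region of either replicate and 10 combined regions of at most 1801 bp, covering 14.0%, with a median score of 0.34. In the 100 kb before it replicate 1 again had none, replicate 2 had 3 regions covering 4.74%, and the combined list covered 29.2%. The region nearest the end lay 246 kb from it in replicate 1, at 27657918 to 27659310, and 148 kb from it in replicate 2, at 27755332 to 27756684. In the combined list it lay 34.4 kb from the end, at 27869428 to 27870612, with a score of 0.31. On 2R, by contrast, the nearest regions lay 8.56, 8.55 and 8.39 kb from the end in replicate 1, replicate 2 and the combined list. On 3L the distances were 194, 383 and 28.2 kb, on 2L 30.0, 344 and 22.9 kb, and on X 65.5, 268 and 40.9 kb. In the same order of lists, the last 100 kb was covered to 0%, 0% and 2.33% on 3L and 4.57%, 0% and 15.1% on 2L. On X the values were 3.1%, 0% and 9.49%, and on 2R 2.84%, 4.31% and 25.1%. The share of each arm end to which reads can be placed was not measured here.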

How the data were processed

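Regions of H1 enrichment were deposited as 1 list for each ChIP sample and 1 for the series, called combined. Positions are on FlyBase Release 5 per the file headers. Each region carries a score deposited by the authors, used within its list only. The submitters' processing notes list Bowtie 0.12.7 and do not say what it did. The region caller and its threshold, whether input was used, the depth and how replicates were combined are likewise not given in the sources used here. Another threshold could change every count, so lists are compared as ratios within a list. Start and end were used as deposited, with a region assigned by its start. Coverage is covered length over sequence length, uncorrected for unmappable sequence; a gap is the sequence between neighbouring regions. Functions for coverage, overlap, gaps and chains were tested on simulated data. With 2 replicates no test was made; Wilson intervals cover counting only.

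The members, lists and comparisons were chosen with earlier results of these data known. Named are the 10 longest and 10 highest-scoring combined regions, the 10 densest and 5 sparsest windows, the 10 largest chains, the 5 longest gaps and the regions nearest the telomere, or the first few of each; other regions were named after their values were seen. No genes or sequences are given, since the table of genes at hand follows Release 6. Alternatives were a score and a length limit, joining, another limit, window sizes, chain rules and leaving out each replicate. Python 3.11.15, numpy 2.4.6, scipy 1.17.1, statsmodels 0.14.6 and matplotlib 3.10.9 were used.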

Additional observations from a re-analysis of the deposited data

How the results depend on the processing

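No alternative turned round a difference that exceeded its spread between replicates. Leaving aside those chosen after seeing the data, 26 of 57 alternatives stayed within that spread, interval or 1.5 times the count. For the others the cause was not tested. The 26 include leaving out a replicate, except for the dense windows, where it moved the count from 10 to 17. For ratios and differences leaving out a replicate could not move or turn round a result, since each of 2 values lies within that spread of their mean. Those alternatives therefore say nothing of how stable a result is, and the 26 overstate it. Keeping only scores from the list median upwards, with regions of at least 2000 bp, with regions less than 1000 bp apart joined and with the limit at 16000000, the ratio of distal to proximal coverage was 1.52, 1.62, 1.33 and 1.27, and that of regions per Mb 1.46, 1.59, 1.24 and 1.22. The difference in median length was 129 ± 54.8 bp, 45.8 ± 35.0 bp and, with the other limit, 31 ± 4.24 bp (SD, n = 2), positive in both replicates each time. That in median score was 0.0032 ± 0.0006, 0.0027 ± 0.0109 and 0.0125 ± 0.0089, the second within its spread and negative, at -0.005, in replicate 1. With regions of at least 2000 bp the gap ratio was 0.546 and the last 1 Mb reached 1.12 times the rest. Requiring 50% of both regions, the median score and 2000 bp left 21.8%, 26.7% and 20.1% of replicate 1 overlapping replicate 2. The other way the shares were 19.2%, 24.0% and 15.1%. Combined regions touching both were 2.46% with 50% and 3.47% with 2000 bp. The score and length limits applied to every list in an overlap, so they also removed the regions that could be met. Under these rules no share was computed for proximal 3R or the whole lists. Windows dense in both replicates numbered 21 of 139 with the densest 10%, against 63 of 1189 on the 5 arms. Those dense in a single replicate numbered 17 with either one, against 59 of 1189. Gaps of at most 1000 bp left 70 dense chains in distal and 70 in proximal 3R, and 8 or more regions 51 and 49. Spearman's correlation of coverage with distance from the telomere was -0.49 in 2 Mb windows and -0.47 with the median score. Chosen after seeing the data, leaving out the belt gave 1.11 for both ratios, and leaving out the 713 kb stretch 1.38 for coverage. Leaving out single replicates or single 1 Mb windows gave 1.25 to 1.38 for coverage and 1.22 to 1.34 for regions per Mb. Leaving out a replicate gave -3.5 to 22.5 bp for length, 0.0049 to 0.0097 for score, 0.682 to 0.802 for gaps, 0.866 to 1.06 for the last 1 Mb and -0.39 to -0.15 for Spearman's correlation. Overlaps between the replicates need both. Distal and proximal 3R were compared within each replicate; between the labelled groups, ChIP and input, nothing was compared. No paired analysis was possible because the input group was not used here. Read depth is unknown.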

Other observations

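Lengths of combined regions dropped in number at 2000 bp, a feature noticed in the data and not tested. In distal 3R 215 regions measured from 1800 to under 2000 bp and 92 from 2000 to under 2200 bp, against 179 and 97 in proximal 3R and 1771 and 837 over the whole combined list. In distal 3R the neighbouring classes were nearly level on each side, with 211 regions from 1600 to under 1800 bp and 92 from 2200 to under 2400 bp. They were less level in proximal 3R, with 209 and 81, and over the whole combined list they held 1828 and 733. In the replicates the counts on each side of 2000 bp were close in distal 3R, with 63 and 60 regions in replicate 1 and 80 and 76 in replicate 2. They were 55 and 40, and 73 and 49, in proximal 3R, and 424 and 267, and 541 and 413, over the whole lists of replicates 1 and 2. In distal 3R replicates 1 and 2 held 106 and 103 regions from 1600 to under 1800 bp, and 21 and 30 from 2200 to under 2400 bp.

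All 18812 starts of the combined list were even numbers, against 50.8% in replicate 1 and 49.9% in replicate 2. In 4 places of that list neighbouring regions shared their boundary base.

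Neighbouring 100 kb windows of distal 3R were only loosely alike. Over 138 pairs of adjacent windows Spearman's rho of coverage was 0.34 in replicate 1, 0.35 in replicate 2 and 0.27 for the combined list, and over 134 pairs that lay 5 windows apart it was 0.08, 0.17 and 0.15. These values describe 1 stretch of chromosome and carry no test.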
